A study of Bos taurus with 35 samples.

Results

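The genes described here were those expressed highest in omental fat (O) of Hanwoo, the Korean native cattle. A gene was taken when its median over the O libraries was at least 3 CPM (counts on genes scaled to library size with TMM factors) and at least 4 times its median in both subcutaneous (S) and intramuscular (I) fat. Of 24596 annotated genes, 12031 reached 3 CPM in O, 52 met the whole rule, and 50 were taken after leaving out 2 genes of the study's primer list, TCF21 and MMP9. The genes were thus chosen by their O, S and I medians, and the difference of these genes from S and I is a description and not a finding. The deposited tables list genes by Ensembl identifier only, and a name was paired with an identifier for the 31 genes of the primer list alone. The 50 genes are therefore numbered 1 to 50 from the highest to the lowest median CPM in O. CPM is not scaled for gene length, so this order is not an order of transcript abundance.

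The study sequenced poly(A) RNA of O, S and I fat and of muscle (M) from 9 animals of 30 months raised in 1 feeding barn. Replicate numbers stand for animals, which the labels give as female (replicates 1, 4 and 7), castrated male (2, 5 and 8) and male (3, 6 and 9), while the methods of the study call them steers. There was no treatment. O was taken at the lesser curvature of the abomasum, and S and I came from a rib section. Counts were analysed for 9 O, 9 S, 8 I and 8 M libraries. The I sample of replicate 9 was not analysed here, and no M sample of replicate 7 is listed. The counts on genes were 3726376 to 7184022 per library, and lines that name no gene held 63.28 to 71.14% of each table.

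The omentum is a fold of peritoneum that carries fat, vessels and clusters of immune cells, and its surface is covered by the mesothelium, a single layer of flat epithelial cells. Subcutaneous fat and the fat between muscle fibres have no such covering, and genes made in one cell layer rise and fall together among pieces of tissue that hold more or less of it. Whether the 50 genes belong to that layer was not tested, because they have no names here. In bulk RNA, a change in the share of a cell type and a change of RNA per cell cannot be told apart.

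Replicate 7 of O and replicate 4 of M stood apart. Replicate 7 of O stood low for most of the 50 genes, and values without it are given below. The M library of replicate 4, labelled female, held the 5 genes that differed by sex class in O at 18.6 to 88.6 CPM, whereas the other female M library held 0 to 0.416 CPM and the male M libraries 9.82 to 98.8 CPM. Its label and its values were therefore at odds, and the muscle counts, and the medians of the genes found in muscle, are given with and without it.

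Levels were compared first across the 4 tissues. Gene 1 (ENSBTAG00000017280) had O levels of 893.28, 2422.1, 3901.8, 935.83, 942.61, 1310.4, 228.03, 1911.9 and 2844.6 CPM in replicates 1 to 9. Its S levels were 61.299 to 429.5 CPM with a median of 325.1, its I levels 24.829 to 139.03 with a median of 48.258, and its M levels 2.8114 to 12.9 with a median of 4.8714. The O libraries stood above every S library except that of replicate 7, which lay inside the S range, and all 9 stood above every I and M library. Gene 1 was also the gene nearest to the limit of the rule, with an O median 4.031 times its S median.

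Gene 2 had O levels of 228.12, 793.63, 1202.2, 1690.6, 932.73, 1608.4, 242.14, 305.36 and 3259.1 CPM in replicates 1 to 9. Its S levels ran from 58.211 to 455.7 CPM and its I levels from 40.03 to 364.54 CPM, so that the O libraries of replicates 1, 7 and 8 lay inside both ranges. In muscle it was at 1.6975 to 17.923 CPM, the highest value being that of replicate 4, and without that library the highest was 8.4616 CPM.

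Gene 5 (ENSBTAG00000009876) was the clearest case of a gene found in O and scarcely elsewhere. Its O levels were 47.435, 261.67, 78.013, 7.3479, 49.554, 113.26, 5.4618, 93.419 and 66.368 CPM in replicates 1 to 9. It had 3 counts over the 9 S libraries, 0 counts over the 8 I libraries and 1 count over the 8 M libraries. With I set at the floor of 3 counts over its libraries (0.0623 CPM), the mean level in O was at least 1290-fold higher than in I. The O level itself was not steady, as the highest library was 47.9 times the lowest.

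Near absence, taken as a median under 0.5 CPM, held for 20 of the 50 genes in S, 18 in I and 34 in M. Over the 12031 genes it held for 0.332%, 0.299% and 2.57%, and in S and I the rule favours such genes. It held in S, I and M together for 13 genes (0.116% of the 12031), which were genes 5, 8, 10, 21, 24, 27, 33, 34, 39, 42, 43, 46 and 47. For 8 of them the median was 0 in S, I and M. No gene was without a count in both S and I, as 4 genes had no count in any S library and 1 had none in any I library. The floor of 3 counts in 1 library was 0.455 CPM in S, 0.492 in I and 0.918 in M, so a median under 0.5 CPM is a level at or near the limit of these libraries, and in muscle it lies below the floor. Floors and counts of 0 cover counting error only.

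The 10 genes with the largest ratio of the O median to the larger of the S and I medians, with 0.1 CPM added to each, were genes 5, 10, 21, 8, 27, 33, 43, 14, 46 and 47, at ratios of 665 down to 42.4. Gene 10 had 0 counts in S, 3 in I and 0 in M against 3.6412 to 105.36 CPM in O. Gene 21 showed the same, with 0 counts in S, 3 in I and 0 in M against 2.2758 to 80.316 CPM in O. Their O means were at least 1020-fold and 536-fold higher than the S floor over the group.

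**Figure D1:**
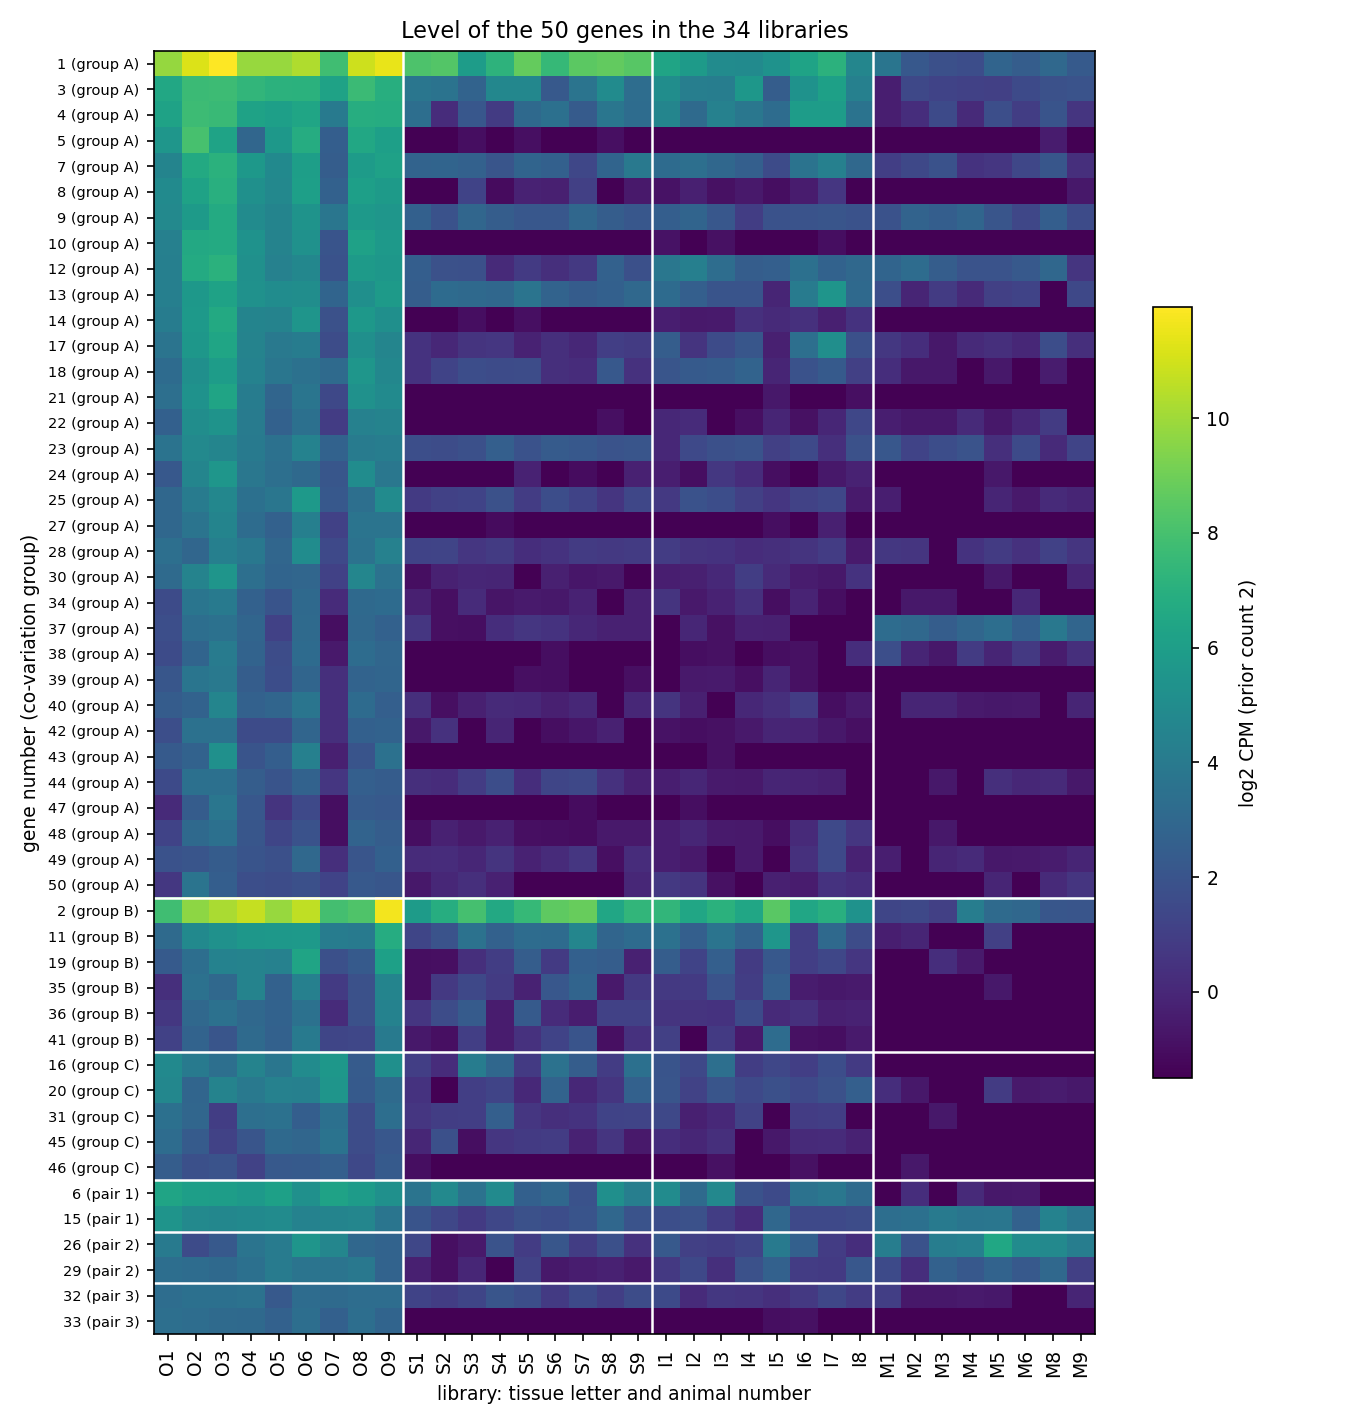
Level of each of the 50 genes (vertical, numbered by O median and ordered by co-variation group) in each of the 34 libraries (horizontal, tissue letter and replicate number), in log2 CPM with a prior count of 2. Within O, group A is dimmest in replicate 7 and group B in replicates 1, 7 and 8, and genes such as 5, 10, 21, 27, 33 and 43 are dark in every S, I and M column.

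The fits over all genes are given for scale only, since the rule chose the genes on the same contrasts. In O against S, 259 of 12966 genes were higher in O at an FDR under 0.01 by the edgeR quasi-likelihood test (2% of those tested), or 592 with the animal as a block (4.57%). Of the 50 genes, 38 passed the count filter of that fit and 35 were called. In O against I, 2033 of 13156 genes were higher in O (15.5%), and of the 50 genes 49 passed the filter and 44 were called. With the animal as a block, a fit that leaves out O replicate 9, 33 were called (15.4% of all genes tested). Without replicate 9 and without the block, 34 were called, beside 1800 over all genes. Both comparisons use the same O libraries and called 30 of the 50 genes, against 0.891% of all genes tested.

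Every O library exceeded every S library for 29 of the 50 genes, against 0.773% of the 12031 genes with at least 3 CPM in O, and every I library for 26, against 5.15%. Both held for 22 genes, against 0.324%. The share was uneven among the groups of genes described below: O exceeded every S library for 23 of 33 genes in group A, 0 of 6 in group B and 1 of 5 in group C. For every I library these counts were 19, 0 and 2. Whether the groups differ was not tested. Within animals, at least 4 times the S level was reached by 25 genes in replicate 7 and by 40 to 47 genes in the other animals. Over I the count was 28 genes in replicate 7 and 32 to 48 in the others. These within-animal counts reuse the values and the 4-fold limit by which the genes were chosen. They describe the animals only, and no share over all genes is given for them.

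Genes beyond the limit of the rule did not form a separate class. The 3 genes just outside the fold had O medians of 3.867, 3.853 and 3.847 times the larger of S and I, beside 4.031, 4.212 and 4.309 for genes 1, 45 and 16 just inside. The 3 genes just under the minimum had O medians of 2.925, 2.843 and 2.779 CPM, beside 3.108, 3.803 and 3.957 CPM for genes 50, 49 and 48.

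The M values were not used by the rule, but the classes below are cut on the O median, which the rule chose. The genes were also chosen to be low in S and I. The counts beside the shares over all genes are thus partly set by the choice, and are descriptions. The median in M was under 0.5 CPM for 34 of the 50 genes, between 0.5 CPM and the O median divided by 4 for 12, between that level and the O median for 2, and at or above the O median for 2. Over the 12031 genes with at least 3 CPM in O, the same classes held 2.57%, 10.1%, 40.2% and 47.1% of the genes. Without M replicate 4 these counts were again 34, 12, 2 and 2, and again 13 genes were near absent in S, I and M. No count was seen in any M library for 13 of the 50 genes, with or without replicate 4, and for 0.208% of the 12031 genes.

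Gene 26 had the highest M level of the 50. Its M levels were 3.4033 to 91.327 CPM with a median of 19.291, and its O levels 2.6328 to 44.716 CPM with a median of 12.435. The M range held 8 of the 9 O values, and the highest M library, replicate 5, came from the animal with the highest I level, 16.001 CPM. Gene 37 had M levels of 5.0926 to 14.378 CPM with a median of 7.6605 and O levels of 0.15172 to 10.939 CPM with a median of 6.9711. In S and I, gene 37 did not exceed 1.1972 and 0.60983 CPM, so this gene was present in omental fat and muscle and scarce in both other fats, and the I fat lying within muscle gave 0 counts of it in 4 of 8 libraries, where the floor is about 0.492 CPM. Without M replicate 4 the M medians were 18.2 CPM for gene 26 and 7.941 CPM for gene 37, with the same ranges. Without TMM scaling no gene had an M median at or above its O median.

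Gene 15 had M levels of 6.0807 to 21.927 CPM (median 12.97) beside 12.649 to 43.172 CPM in O (median 26.34), and gene 29 had 0.85082 to 7.908 CPM (median 4.3488) beside 6.5711 to 16.789 CPM (median 10.551). Without M replicate 4 the M medians were 13.289 CPM for gene 15 and 4.4805 CPM for gene 29, with the same ranges. Both genes had lower medians in S and I, where gene 15 had medians of 3.179 and 2.5511 CPM and gene 29 medians of 0.39353 and 1.8818 CPM. Among the genes of high O level, M was low: genes 1 and 2, with O medians of 1310.4 and 932.73 CPM, had M medians of 4.8714 and 3.8547 CPM, or 5.1206 and 3.7555 CPM without M replicate 4.

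**Figure D2:**
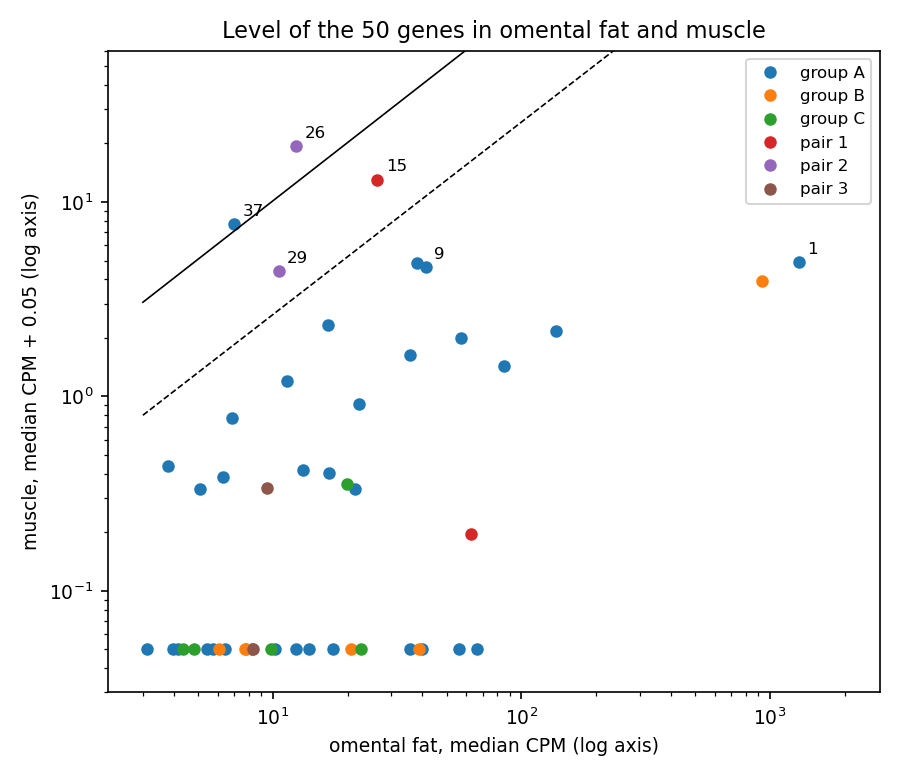
Median level of each of the 50 genes in O (horizontal) and in M (vertical, with 0.05 CPM added), on log axes, coloured by co-variation group. The solid line marks equal levels and the dashed line the O level divided by 4, with genes 26 and 37 above the solid line, genes 15 and 29 between the lines, and a row of genes at an M median of 0.

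The rule used only the median over the O libraries, so how the genes vary among the 9 O libraries is a separate measure. Pearson's r was computed between each pair of genes on log2 CPM with a prior count of 2. The median r over all pairs of the 50 genes was 0.547, beside -3.22e-05 over all 12031 genes with at least 3 CPM in O. An r of at least 0.8 was found in 30.9% of the pairs, beside 2.94% over all genes. All pairs share the same 9 libraries, and the values are descriptions. The spread itself was also wide, with a median SD of log2 CPM of 1.12 for the 50 genes and 0.32 for all genes.

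The 50 genes were not one block. Average linkage, cut at a mean r of 0.5, gave a group of 33 genes (group A), one of 6 (group B), one of 5 (group C) and 3 pairs. Group A held genes 1, 3, 4, 5, 7 to 10, 12 to 14, 17, 18, 21 to 25, 27, 28, 30, 34, 37 to 40, 42 to 44 and 47 to 50. Group B held genes 2, 11, 19, 35, 36 and 41, and group C genes 16, 20, 31, 45 and 46. The groups were formed on r, so the r within them is a description of the same values. The median r was 0.883 within group A, 0.92 within B and 0.615 within C. Between groups it was 0.486 for A with B, -0.601 for A with C and -0.129 for B with C.

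**Figure D3:**
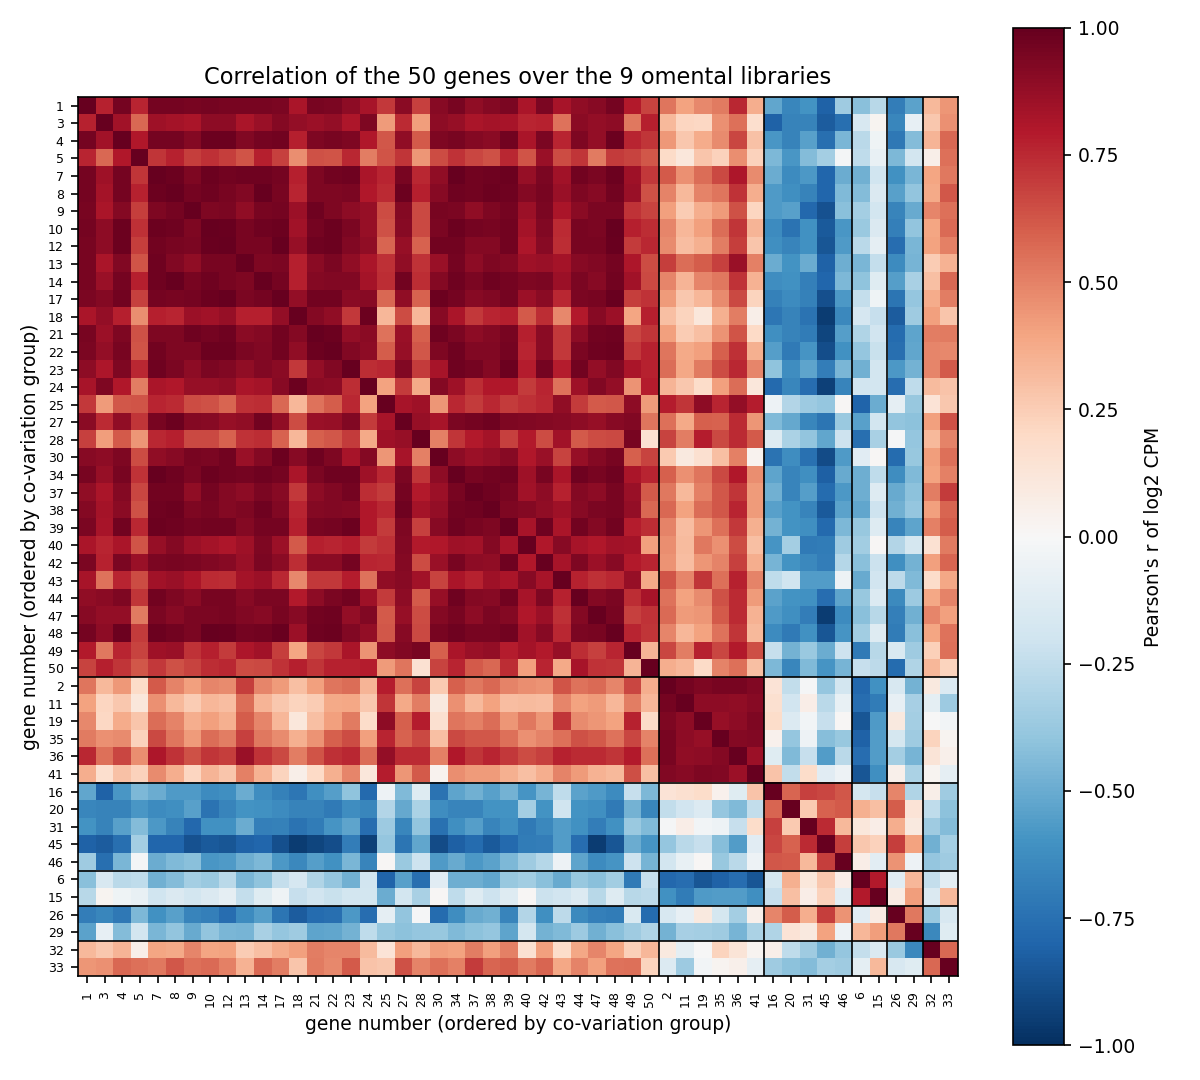
Pearson's r of log2 CPM over the 9 O libraries for every pair of the 50 genes, from blue (-1) to red (1), ordered by co-variation group with black lines between groups. The 33 genes of group A form the large red block with a median r of 0.883, group B a small red block with 0.92, and the blue bands mark group C against group A at -0.601.

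Group A, which held 11 of the 13 genes near absent in S, I and M, summed to 1389, 4011, 5795, 1648, 1510, 2247, 410.5, 3043 and 3797 CPM in O replicates 1 to 9. Replicate 3 was highest and replicate 7 lowest, a span of 14.1-fold, or 4.17-fold without replicate 7. Replicate 7 was the lowest library for 32 of the 33 genes and replicate 3 the highest for 25. In S the sum was 114.1 to 505.2 CPM, in I 78.99 to 399.2 and in M 32.07 to 56.43 (the same without M replicate 4), so O replicate 7 lay inside the S range and 8 O libraries lay above every other library. Gene 1 made up most of the sum in O and S. Without it, the sum was 182.5 to 1893 CPM in O, 48.77 to 83.49 in S, 37.97 to 260.2 in I and 27.44 to 48.53 in M, and O replicate 7 lay inside the I range.

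The size of the steps differed among the genes of group A, from a highest O library 2.78 times the lowest in gene 3 to 47.9 times in gene 5, whose lowest O library had 36 counts. Of the other genes, 5 had wider spans over lowest libraries of 1 to 3 counts, which give no exact fold. The slope of each gene's log2 CPM on the mean of the other 32 genes was 0.397 to 1.39 with a median of 1.08, and r with the rest of the group was at least 0.9 for 23 genes and no lower than 0.703. The 528 pairs had r of 0.151 to 0.998, with quartiles of 0.761 and 0.943. Without replicate 7, the median r was 0.337 over all 50 genes and 0.794 within these 33 genes. The linkage then gave a largest group of 29 genes, all among the 33. With the values centred on the means of the sex classes, the median r within group A was 0.839.

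In the other tissues, the median r within group A was -0.0124 over S, 0.00102 over I and 0.0128 over M. Most of them are at a few counts there. Among the genes of group A with a mean of at least 20 counts in the tissue, a limit set after the first values were seen, the median r was -0.0442 over S for 7 genes and 0.51 over I for 9 genes (genes 1, 3, 4, 7, 9, 12, 13, 17 and 18), and only gene 37 reached it in M. In I, replicate 7 was the highest library for 5 of the 9, the reverse of O, and the median r of the 9 was 0.524 without it. Between the group A mean in O and that in the same animal, r was -0.136 (rho -0.0333) for S over 9 animals and -0.471 (rho -0.405) for I over 8. Over the 9 O libraries the group A mean had r of -0.193 with the counts on genes, 0.462 with the percent of lines that name no gene and 0.843 with the TMM factor. Without TMM scaling the median r within group A over O was 0.8966, and with RLE size factors, another scaling, it was 0.8839. Beyond these scalings, the part of library composition in the result was not tested.

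Group B had a different order of libraries. It summed to 245, 858.3, 1285, 1802, 1022, 1792, 266.6, 333.8 and 3503 CPM in O replicates 1 to 9, of which gene 2 made the most, and replicate 9 was the highest library for 5 of its 6 genes. In S the sum was 62.1 to 497 CPM and in I 45.1 to 431.7 CPM. Replicates 1, 7 and 8 of O lay inside both ranges, and in no gene of group B did every O library exceed every S or every I library. The M median was 3.85 CPM for gene 2 and under 0.5 CPM for the other 5 genes.

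Group C ran against group A. It summed to 79.95, 38.03, 39.73, 53.51, 57.54, 68.2, 122.1, 17.28 and 63.25 CPM in O replicates 1 to 9, and replicate 7, the lowest for group A, was the highest library for 4 of the 5 genes. Gene 16 (ENSBTAG00000032059) was at 48.246 CPM in O replicate 7 and at 4.8013 to 36.141 CPM in the other 8, and it had no count in any M library. Gene 20 (ENSBTAG00000002940) was at 45.667 CPM in replicate 7 and at 4.6641 to 26.116 CPM in the others. The sums were 4.518 to 20.94 CPM in S and 5.184 to 15.9 CPM in I, and O replicate 8, at 17.28 CPM, fell inside the S range.

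**Figure D4:**
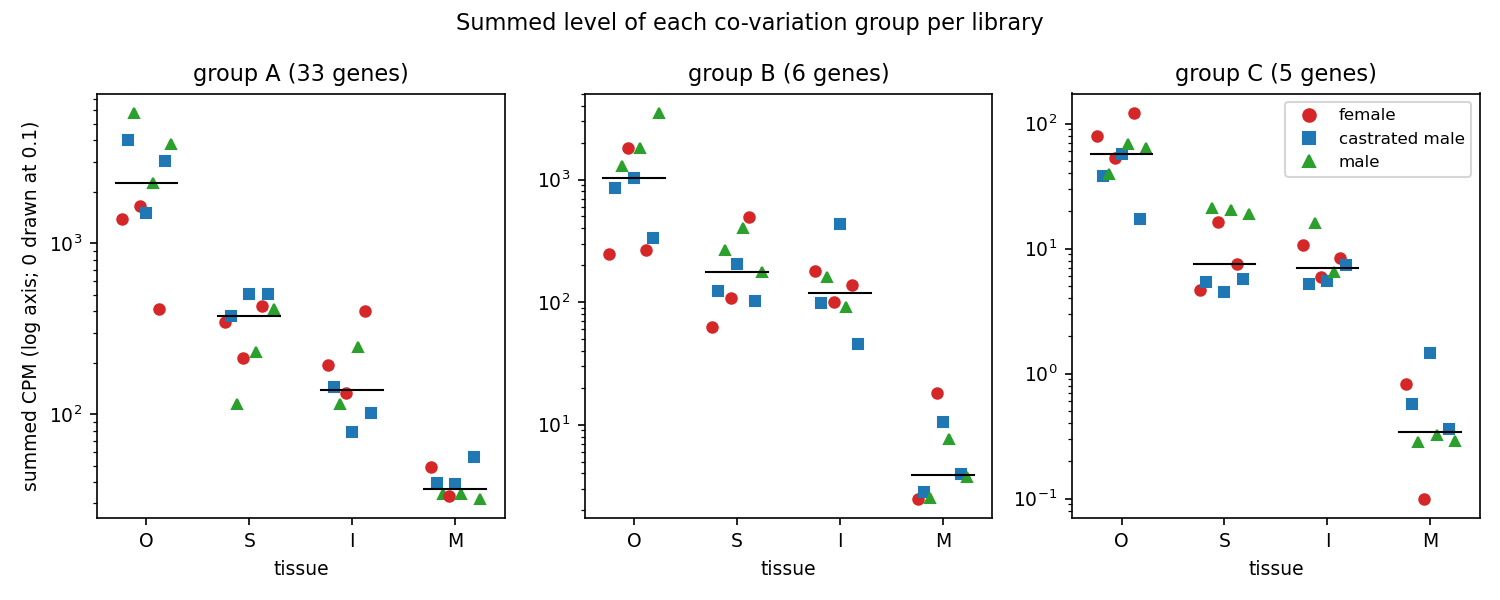
Summed CPM (log axis, with a sum of 0 drawn at 0.1) of groups A, B and C in each library of O, S, I and M, with the sex class of the animal as the symbol and the median of each tissue as a line. Group A spans 410.5 to 5795 CPM in O with a female animal lowest, group B spans 245 to 3503 CPM, and the highest O library of group C is the same female animal, at 122.1 CPM.

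A few of the 50 genes were steady among the O libraries. The SD of log2 CPM was under 0.5 for 6 genes, none of them in group A. Gene 33 was at 10.127, 9.361, 8.3483, 8.1016, 5.9573, 9.841, 5.7653, 9.8769 and 6.7354 CPM in O replicates 1 to 9, a span of 1.76-fold. It had 0 counts over the S libraries, 2 over the I libraries and 0 over the M libraries. The O mean was thus at least 166-fold higher than in S and at least 68.9-fold higher than in M. Genes 5 and 33 were both almost confined to O among these libraries, yet O replicate 7 held gene 33 at 5.7653 CPM against a median of 8.3483, and gene 5 at 5.4618 CPM against a median of 66.368.

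Genes 6 and 15, the pair with the closest tie (r = 0.79), were also steady, at 37.465 to 81.724 CPM and 12.649 to 43.172 CPM in O. Genes 26 and 29 had r of 0.53 and genes 32 and 33 r of 0.57. Genes 15, 26 and 29, the genes of the pairs that were found in muscle, thus lay outside group A, and gene 37 was the only one of group A with an M median above its O median divided by 4.

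Since no marker of the mesothelium could be matched, the gene of highest median CPM in each group was set against the 31 named genes over the 9 O libraries, a choice made after the data were seen. Of the 93 relations, 6 had no value because ZIC1 and LHX8 had 0 counts in every O library. The other 87 had exact permutation tests, and 5 had an adjusted p under 0.05 for Pearson's r. The permutations took the 9 libraries as exchangeable across the sex classes, and these relations were not computed within the classes. Gene 1 of group A rose with ERBB3, a receptor of the epidermal growth factor receptor family, with r = 0.96 and rho = 0.933 (exact permutation, two-sided p = 3.03e-05 and 0.00075, adjusted p = 0.00264 and 0.0217). ERBB3 was at 20.08, 40.66, 86.07, 28.26, 19.09, 36.08, 3.186, 35.67 and 42.22 CPM in O replicates 1 to 9, with replicate 7 lowest and replicate 3 highest as in gene 1. Without replicates 3 and 7, the farthest from the median of gene 1, r was 0.872. The name is the one paired with the identifier in the primer list, and another list of the study, which gives no identifiers, has ERBB2 and not ERBB3. ERBB3 did not meet the rule, with medians of 2.411 CPM in S and 14.02 CPM in I beside 35.67 in O.

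Gene 1 also had r = 0.895 and rho = 0.833 with CCR2, a chemokine receptor (exact permutation p = 0.000482 and 0.00827, adjusted p = 0.0105 and 0.12), and r = 0.872 and rho = 0.867 with BDNF, a neurotrophin (exact permutation p = 0.00182 and 0.00451, adjusted p = 0.0316 and 0.0981). Both are low in O, at 9 to 40 counts per library for CCR2 and 1 to 47 for BDNF. Without replicates 3 and 7, r was 0.84 and 0.635. Without replicate 7 alone, the adjusted p of the permutation test was 0.158 for CCR2 and 0.401 for BDNF. For CCR2 it was also above 0.05 without replicate 3 (0.0593). For BDNF it was also above 0.05 without replicate 1, 2, 3, 4 or 8 (0.0655, 0.0791, 0.16, 0.0893 and 0.0532).

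Gene 2 of group B rose with MMP9, a matrix metalloproteinase made by neutrophils and macrophages among other cells, with r = 0.949 and rho = 0.933 (exact permutation p = 0.000135 and 0.00075, adjusted p = 0.00392 and 0.0217). MMP9 was at 8.705, 37.01, 30.95, 81.2, 59.71, 135.2, 10.32, 19.48 and 183.2 CPM in O replicates 1 to 9, and met the rule for the 50 genes apart from being in the primer list. Without replicates 1 and 7, r was 0.888. The next highest r with gene 2 was that of EEF1A2, a translation elongation factor, at 0.761 with rho = 0.483 (exact permutation p = 0.0132 and 0.194, adjusted p = 0.191 and 0.569). Of the myeloid genes among the named ones, ITGAM, an integrin subunit, had r = 0.695 and rho = 0.717 (exact permutation p = 0.0412 and 0.0369, adjusted p = 0.351 and 0.292), or 0.249 without replicates 1 and 7, and CD163, a scavenger receptor of macrophages, had r = 0.00132 and rho = 0.217 (exact permutation p = 0.998 and 0.581), with r of -0.175 without them.

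Gene 16 of group C rose with ACTB, the beta-actin gene, with r = 0.93 and rho = 0.95 (exact permutation p = 0.000116 and 0.000353, adjusted p = 0.00392 and 0.0217). ACTB ran only from 2095 CPM in replicate 8 to 3291 in replicate 9, while gene 16 spanned 10-fold. Without replicates 3 and 8, r was 0.878. No other of the 87 relations passed.

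**Figure D5:**
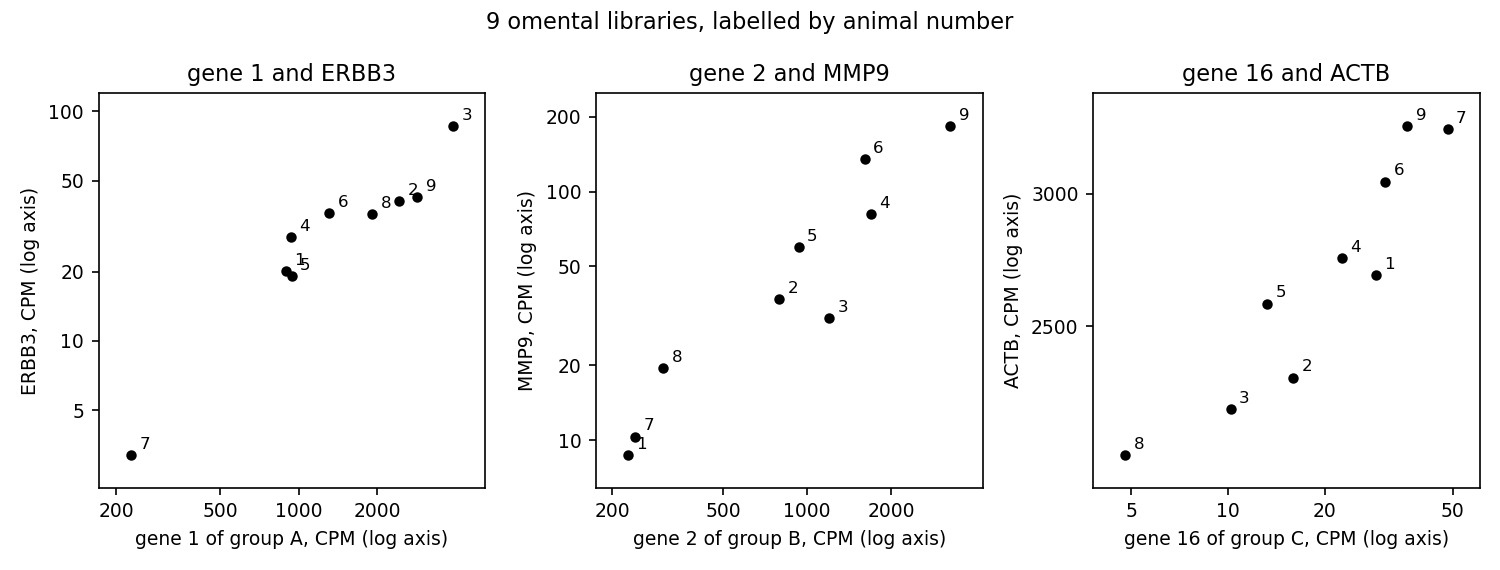
Level of gene 1 with ERBB3, gene 2 with MMP9 and gene 16 with ACTB in the 9 O libraries, in CPM on log axes, each point labelled with its animal. Animals 7 and 3 are the extremes of gene 1 and ERBB3, animals 1 and 9 those of gene 2 and MMP9, and ACTB has a much narrower range than gene 16.

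Other genes that follow group A were looked for among the 11981 genes with at least 3 CPM in O outside the 50. With the group A mean, 63 had r of at least 0.9, ERBB3 among them. Of these 63, 12 were at least 4 times S in O, beside 0.476% of the 11981, and 3 were at least 4 times I, beside 1.84%. The I median was at or above the O median in 33 (52.4%), a share not far from the 45.1% of the 11981. At r of at least 0.95 there were 19 genes, of which 8 were at least 4 times S, 0 were at least 4 times I and 10 had I at or above O. Genes at least 4 times both S and I had already been taken, apart from TCF21 and MMP9, which did not follow group A. None of these genes could therefore pass both limits.

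The sex classes were compared in O, which the rule did not use. By the edgeR quasi-likelihood F-test over the 3 classes, 5 of 13443 genes passed an FDR under 0.01 (0.0372%), and 0 of the 50 genes did. At an unadjusted p under 0.05 there were 16 of the 50 genes, beside 3.88% of all genes. By the DESeq2 likelihood ratio test, 2 of the 50 genes passed (0.179% of all genes), genes 25 and 43, and 24 of the 50 were at an unadjusted p under 0.05, beside 4.73% of all genes. Gene 25 had O levels of 7.4618, 10.551 and 4.2481 CPM in females, 16.82, 13.269 and 10.151 CPM in castrated males and 26.052, 51.449 and 31.048 CPM in males. The males lay above all others, and the edgeR adjusted p was 0.297. Gene 43 was at 0.45515 to 4.6192 CPM in females, 3.5667 to 6.2894 CPM in castrated males and 11.007 to 36.991 CPM in males (edgeR adjusted p = 0.684).

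The estimates of females against both male classes were below 0 for 40 of the 50 genes, beside 48.8% of all genes, with a median log2 difference of -1.3 beside 0.00782. These 40 were all 33 genes of group A, all 6 of group B and gene 33, and the 5 genes of group C had estimates above 0. By the edgeR test, 27 genes were lower in females at an unadjusted p under 0.05, beside 2.48% of all genes, and 0 passed an FDR under 0.01. By the same test 2 genes were higher in females, genes 16 and 20 of group C (unadjusted p = 0.0451 and 0.0413). The genes share libraries and vary together, so their number adds little to 3 animals a class. Without replicate 7, which is female, 40 genes were below 0, of which 38 were among the first 40, beside 49.7% of all genes, and 7 were so at an unadjusted p under 0.05, beside 1.14%. In the pairwise contrasts by the same edgeR test, 0 of the 50 genes passed an FDR under 0.01. At an unadjusted p under 0.05, 28 genes were lower in females than in males (2.37% of all genes), 11 were lower in females than in castrated males (2.69%) and 5 were lower in castrated males than in males (1.12%). The pairwise contrasts share their libraries, and whether they differ from each other was not tested. The group A sums were 410.5 to 1648 CPM in females, 1510 to 4011 in castrated males and 2247 to 5795 in males. In these sums of 3 libraries a class, females and males did not overlap and castrated males overlapped both. Gene 1 made up most of each sum, and the lowest female was replicate 7. How often sums of other genes are parted so was not tested.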

How the data were processed

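The authors mapped paired reads of poly(A) RNA to the bovine genome with TopHat2 2.0.2 and counted them with HTSeq 0.5.3p3. The deposited values are raw counts per Ensembl gene, for 24596 genes, and the 5 summary lines of each table were left out (63.28 to 71.14% of its counts). The strand setting is not given in the sources used here. The report gives the range of depth over the libraries. With R 4.3.3, edgeR 4.0.16 and DESeq2 1.42.0, counts were scaled with TMM over the 34 libraries for the levels, filtered with filterByExpr (count minimum 10) and compared with the quasi-likelihood test at an FDR under 0.01. Exact permutation tests used Python with scipy 1.17.1. The test was tested on simulated data: in O against S, 96 of 100 genes changed 4-fold and 72 of 100 changed 2-fold were recovered with 4 false calls, and in the sex classes of O, 71 and 5 of 100 with 1.

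Replicate numbers mark animals in the labels. The deviations of O and S libraries of one animal had a median r of 0.413 (lowest 0.264) and those of O and I 0.103 (lowest 0.0454). No pair of libraries of 1 tissue agreed within sampling noise (lowest chi-square per degree of freedom 12.7 over 128 pairs).

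The genes, lists and rules were chosen with earlier results of these data known. The text names the genes of highest O median, largest ratio, highest M level and lowest sex class p, those at the limits of the rule and the leading genes of the groups. Marker lists of mesothelium and other cells, pathway lists and sequences could not be matched to identifiers and were not used, and the correlation with mesothelial markers was replaced by that with the 31 named genes. The identifiers were taken as the files give them, and 4 are printed. Alternatives were other scalings, filters, tests, thresholds, the animal as a block and each animal left out.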

Additional observations from a re-analysis of the deposited data

Results flagged for a closer look

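In 36 sets of 8 or 9 values of the genes and groups shown by library, 10 held a value whose gap to the next was large for the range of its set. Chance gives about 1 in 20 for normally distributed values. CPM values are skewed to the right and bounded at 0, and the sums of group B repeat gene 2, so that this share does not hold here. For gene 2 these were replicate 9 of O at 3260 CPM, replicate 5 of I at 365 CPM and replicate 4 of M at 17.9 CPM, the M library whose label and values are at odds. Group B, which gene 2 leads, had its highest sums in the same libraries, O replicate 9 at 3500 CPM and I replicate 5 at 432 CPM. Gene 5 was highest in O replicate 2 at 262 CPM, and its only M count made 0.359 CPM in replicate 8. Gene 16 was highest in I replicate 3 at 10.3 CPM. Gene 26 was highest in replicate 5 in both I, at 16 CPM, and M, at 91.3 CPM.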

How the results depend on the processing

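Over 18 results, 203 of 227 alternative values kept the direction and side of the threshold or moved little, and 0 reversed. Many of the results are counts, which cannot reverse. Moving little covered a fall from 44 to 33 genes called in O against I with the replicate block. It also covered a median r over the 50 genes of 0.337 without replicate 7, beside 0.547. The number of genes meeting the rule was 81 with a minimum of 1 CPM, 30 with 10 CPM, 86 with a fold of 3 and 22 with a fold of 8. It was 64 without TMM and 51 to 60 with an animal left out. With the limit of near absence itself at 1 CPM, 23 of the 50 genes were near absent in S, I and M. With that limit at 0.25 CPM there were 9, beside 13 at 0.5 CPM. With no TMM 0 genes had M at or above O, and with an animal left out 1 to 2. With an animal left out, 171 to 283 genes were called higher in O than S over all genes (171 without replicate 9, 172 without replicate 5), 439 by the likelihood ratio test, 476 by DESeq2 and 592 with the replicate block. In O against I, no TMM gave 3348, with a median log2 difference over all genes of 0.223 beside 0.0217 with TMM. The cause of these moves was not tested. With the replicate block, 38 of the 50 genes were called in O against S and 33 in O against I, a fit without O replicate 9, and the block was used in no other fit. With an animal left out and no block, 29 to 45 were called in O against S and 34 to 47 in O against I, with 34 without replicate 9. Over all genes, these fits of O against I called 1602 to 2270, with 1800 without replicate 9. By sex class, DESeq2 called 2. With an animal left out, r was 0.864 to 0.939 for gene 1 with CCR2 and 0.733 to 0.908 with BDNF, with adjusted p up to 0.158 and 0.401, while r with ERBB3 was 0.911 to 0.975, that of gene 2 with MMP9 0.928 to 0.98 and that of gene 16 with ACTB 0.91 to 0.95, all with adjusted p below 0.05. The planned correlation with mesothelial markers was not run, as the markers have no identifier here. At these depths a count of 0 in 1 library allows 0.455 CPM in O and 0.918 CPM in M. Females, castrated males and males are 3 each, which limits what the sex class test can show.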
